A study of Arabidopsis thaliana with 12 samples.

Results

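The transcriptome of Arabidopsis seedlings carrying a T-DNA insertion in MBD6 was compared with that of wild-type seedlings. The comparison rests on 6 of the series' 12 arrays, 3 of mbd6 and 3 of wild type, chosen by the genotype in the sample titles. All plants were of the Col-0 accession, were grown on MS medium and were harvested as whole seedlings at 10 days of age. The 3 mbd4 arrays, from a T-DNA mutant of the related gene MBD4, entered the same model and serve as a further point of comparison. The 3 mbd11 arrays were left out of the model because their spread is wider. The insertion lines are given by gene only, so each genotype stands for an unnamed allele, and p-values measure the spread between 3 biological replicates per genotype. Each value is a deposited log2 intensity of the ATH1 expression array, and each change is a log2 difference, mbd6 minus wild type, so that a change of 1 is a doubling.

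Methyl-CpG-binding domain (MBD) proteins recognise DNA through a domain that in animals reads methylated cytosines in CpG dinucleotides. Arabidopsis has a family of such proteins, and MBD6 is among those members that bind methylated CpG sites in vitro. MBD6, with the closely related MBD5, has been tied to the silencing of methylated genes and transposons. No probe set is assigned to MBD6 alone, so the transcript of the disrupted gene was not analysed here and the labels were not checked against it. Of 15 listed genes of the MBD family 1 was measured, and it was not called (change -0.08).

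Of 22746 probe sets tested, 4106 (18.1%) differed between mbd6 and wild type at an adjusted p under 0.05, which is the meaning of "called" throughout (limma, Benjamini-Hochberg over all probe sets). There were 2070 higher (9.1%) and 2036 lower (8.95%). Large changes were more often upward: 491 called probe sets (2.16%) were at least 2-fold higher and 190 (0.835%) at least 2-fold lower. Values of the 2 genotypes were fully separated for 36.1% of the 22746 probe sets, and for 4089 of the 4106 called. Genes are named from the 13513 probe sets assigned to 1 gene, of which 7.35% were called higher and 8.28% lower, with a median change of -0.04. These shares are the background for every count of called list or family members below. Against mbd4, the mbd6 arrays differed at 2470 probe sets (10.9%), of which 5.24% of all were higher and 5.62% lower in mbd6. Both seedling organs were visible in the data, since the root gene PYK10 lay between 12.30 and 12.53 and the light-harvesting gene LHCB4.1 between 13.04 and 13.25 on the 6 arrays. The 9 arrays correlated at 0.979 or above with each other, and mbd6 replicate 1 differed most from the other mbd6 arrays, with a standard deviation of 0.234 over probe sets, beside 0.191 and 0.179 for replicates 2 and 3. One mbd4 array, replicate 3, stood apart: its mean 3' minus 5' control difference was 2.08 log2 units, beside 1.08 to 1.5 on the other 8 arrays, and without it 5025 probe sets were called.

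Genes that act in the response to iron deficiency were among the deepest falls in mbd6. Plants short of iron switch on a cascade of basic helix-loop-helix (bHLH) transcription factors and ubiquitin ligases that control iron uptake and distribution. Of 10 measured genes in the list of iron deficiency regulators, 6 were lower, beside 8.28% of all probe sets of 1 gene. In this list 0 were higher and 4 were not called, with a median change of -0.52. AT1G47400, a locus of this list, had 7.44, 6.71 and 6.62 in mbd6, against 10.95, 11.27 and 11.09 in wild type. Every mbd6 value lay more than 3 log2 units under the lowest wild-type value, and the fall of 4.18 (SE 0.20) was the largest among probe sets assigned to 1 gene (adjusted p = 9.47e-08). In whole seedlings, fewer cells that express a gene and less RNA per cell cannot be told apart.

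BHLH101, a bHLH factor induced when iron is scarce, had 6.68, 5.75 and 5.65 in mbd6, against 8.88, 8.95 and 8.81 in wild type. PYE (POPEYE), a bHLH factor that restrains iron homeostasis genes, had 5.89, 5.93 and 5.70 in mbd6, against 8.01, 7.82 and 7.94 in wild type. The groups were well separated for both, and the changes were -2.85 (SE 0.21, adjusted p = 2.11e-06) and -2.09 (SE 0.10, adjusted p = 9.47e-08). AT1G74770 had 4.44, 4.54 and 4.97 in mbd6, against 6.15, 6.26 and 6.28 in wild type (change -1.58, adjusted p = 6.9e-06), and its change was -0.96 when a dimmer probe set of the gene was averaged in. Among the bHLH factors that act upstream in the cascade, bHLH34 had 5.87, 6.03 and 5.74 in mbd6, against 6.44, 6.46 and 6.52 in wild type, a fall of 0.59 (adjusted p = 0.00107). The related factors bHLH104, bHLH115, ILR3 and bHLH121 changed by 0.07 to 0.16 and were not called (adjusted p = 0.548 to 0.753). AT1G18910 was called at -0.45 (adjusted p = 0.0448), a call that was lost without mbd4 replicate 2 and without any one of the mbd6 or wild-type arrays (adjusted p = 0.054 to 0.134), and with all 12 arrays in the model (0.276).

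mbd4 seedlings lay between the other genotypes for the 3 deepest of these falls. The mean of AT1G47400 was 6.92 ± 0.45 in mbd6 seedlings, 9.70 ± 0.26 in mbd4 seedlings and 11.11 ± 0.16 in wild-type seedlings (SD, n = 3 each), and mbd6 was lower than mbd4 by a difference of -2.77 (adjusted p = 6.99e-06). The mbd6 minus mbd4 difference was -1.75 for BHLH101 (adjusted p = 0.000263) and -0.94 for PYE (adjusted p = 0.000133). Of the genes that take up, move or store iron, 3 of 36 listed were measured, and here 1 moved the other way. AT3G13610 (F6'H1), the enzyme that makes the coumarins secreted by roots to mobilise iron, had 9.02, 9.26 and 9.09 in mbd6, against 7.11, 6.91 and 7.10 in wild type. That is a rise of 2.08 (SE 0.11) or 4.23-fold (adjusted p = 1.64e-07), with mbd4 at a mean of 8.38. The metal transporter gene ZIP9 and AT3G12900 lay between 3.88 and 4.67 on the 6 arrays and were not called (adjusted p = 0.878 and 0.325).

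**Figure D1:**
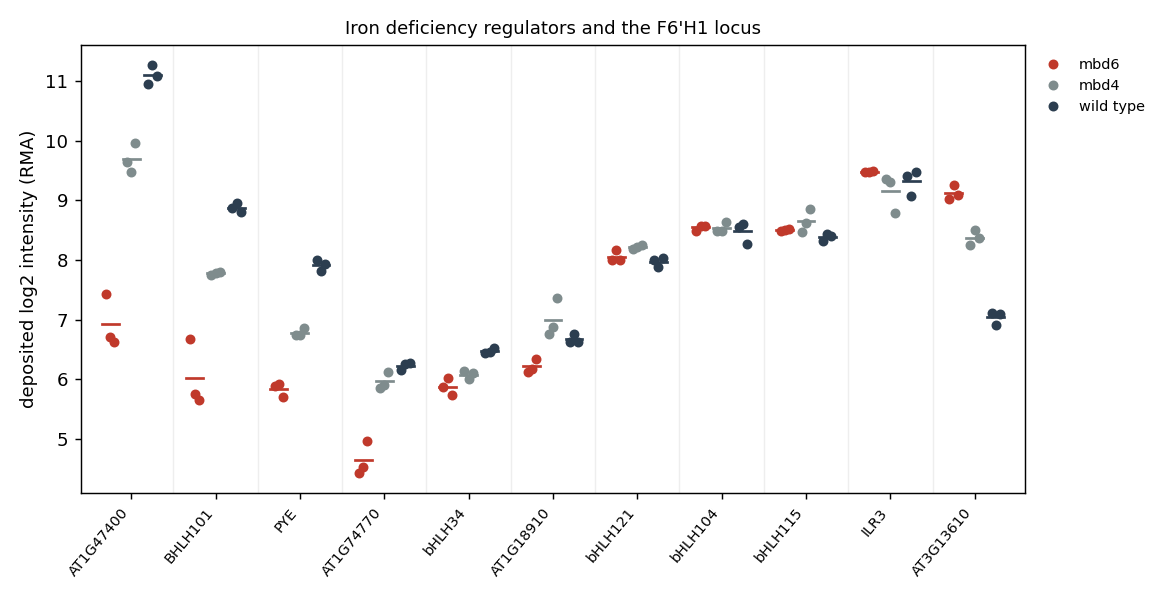
Log2 intensity of 10 iron deficiency regulators and of AT3G13610 (F6'H1) in mbd6, mbd4 and wild type, 1 point per array with a bar at the mean of 3. AT1G47400, BHLH101 and PYE are lowest in mbd6 and highest in wild type, bHLH104, bHLH115, ILR3 and bHLH121 overlap or nearly so, and AT3G13610 runs the other way.

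Secreted defence proteins contributed the largest rises. Plants release small antifungal peptides, osmotins, glucanases, chitinases and proteins of the PR-1 family to the cell surface when attacked or stressed. Of 15 measured genes of this kind, 6 were higher, 3 were lower and 6 were not called, with a median change of 0.25. The share called was 60.0%, beside 15.6% of all probe sets of 1 gene. AT4G33720 had 9.93, 10.09 and 9.90 in mbd6, against 5.75, 5.78 and 6.02 in wild type. The gap between the groups was many times the spread within either, and the rise of 4.12 (SE 0.10) was the largest among probe sets assigned to 1 gene (adjusted p = 7.49e-10). The osmotin gene OSM34 had 12.01, 11.63 and 11.86 in mbd6, against 9.18, 9.13 and 9.0 in wild type (change 2.73, adjusted p = 3.15e-08). AT4G16260 had 11.32, 10.81 and 10.98 in mbd6, against 8.37, 8.39 and 8.42 in wild type (change 2.64, adjusted p = 2.68e-07).

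AT2G43620, AT2G43590 and CHI (AT2G43570), whose locus numbers lie close together, rose by 1.75, 1.32 and 0.74 (adjusted p = 2e-06, 2.03e-06 and 0.000306). AT4G25780 went the other way, at 5.53, 5.87 and 5.23 in mbd6, against 6.98, 7.0 and 7.29 in wild type (change -1.55, adjusted p = 2.49e-05). The 2 smaller falls, -0.79 for AT1G50060 and -0.35 for AT1G20030, were both lost with all 12 arrays (adjusted p = 0.0758 and 0.283), with a floor of 4 (0.141 and 0.0659) and without any one of the wild-type arrays (0.0521 to 0.134). Without mbd6 replicate 1 the AT1G50060 change was -0.45 and that of AT1G20030 -0.23.

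The defensin PDF1.2, a peptide induced by jasmonate and ethylene together, had 11.03, 11.80 and 11.74 in mbd6, against 7.87, 7.82 and 7.95 in wild type. Its rise of 3.64 (SE 0.17) was 12.5-fold (adjusted p = 8.84e-08). PDF1.2b, measured by a probe set type that can pick up near-identical copies such as PDF1.2, rose by 2.96 (adjusted p = 4.91e-07). The thionin gene THI2.2 fell, at 5.51, 5.9 and 5.94 in mbd6, against 6.93, 7.07 and 7.0 in wild type (change -1.22, adjusted p = 9.77e-05). Thionin THI2.1 had 6.30, 4.29 and 4.29 in mbd6, against 3.69, 3.69 and 3.76 in wild type, and just missed the threshold (change 1.24, adjusted p = 0.0502). All of its mbd6 values were above all wild-type values, and replicate 1 was 2 log2 units above the others; without it the change was 0.57, with an adjusted p of 0.00841. In all, 2 of the 6 measured jasmonate and ethylene defence genes were higher and 1 lower. Defensins of the PDF2 type moved opposite to PDF1.2: PDF2.1 had 7.41, 8.08 and 7.71 in mbd6, against 8.59, 8.77 and 8.64 in wild type (change -0.93, adjusted p = 0.00082), and PDF2.5 fell by 0.40 (adjusted p = 0.0229), a call lost without mbd6 replicate 1 and without wild-type replicate 1 or 2 (adjusted p = 0.0684 to 0.0919) and with all 12 arrays (0.548).

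Against mbd4 these genes behaved unequally. The mean of PDF1.2 was 11.52 ± 0.43 in mbd6 seedlings, 11.59 ± 0.08 in mbd4 seedlings and 7.88 ± 0.07 in wild-type seedlings (SD, n = 3 each), with an mbd6 minus mbd4 difference of -0.08 (SE 0.17, adjusted p = 0.842). AT4G33720, OSM34 and AT4G16260 were higher in mbd6 than in mbd4 by 0.77, 0.75 and 0.81 (adjusted p = 0.000634, 0.00101 and 0.00438). THI2.2 and AT4G25780 were lower in mbd6 than in mbd4, with differences of -1.04 and -1.17 (adjusted p = 0.000798 and 0.00061).

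Of the 4 measured salicylate defence genes, 3 were higher and AT3G48080 was not called (change 0.55, adjusted p = 0.0722). Among all probe sets of 1 gene, 7.35% were higher. WRKY53, a transcription factor of senescence and defence, had 5.04, 5.39 and 5.40 in mbd6, against 3.91, 3.90 and 3.77 in wild type (change 1.42, adjusted p = 3.21e-05). The glutaredoxin gene GRX480 had 6.75, 5.83 and 6.0 in mbd6, against 5.19, 4.99 and 5.43 in wild type (change 0.99, adjusted p = 0.0051; 0.0542 with a floor of 4). SAG101, which acts with the immune regulator EDS1, changed by 0.49 (adjusted p = 0.0303), and that call was lost without mbd6 replicate 1 or 2, without wild-type replicate 2 or 3 (adjusted p = 0.0687 to 0.125) and with all 12 arrays (0.218). Among the 6 WRKY genes measured, WRKY22, linked to immune signalling, was higher beside WRKY53, by 0.69 (adjusted p = 0.000416). The WRKY22 call was lost with all 12 arrays (adjusted p = 0.0681).

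**Figure D2:**
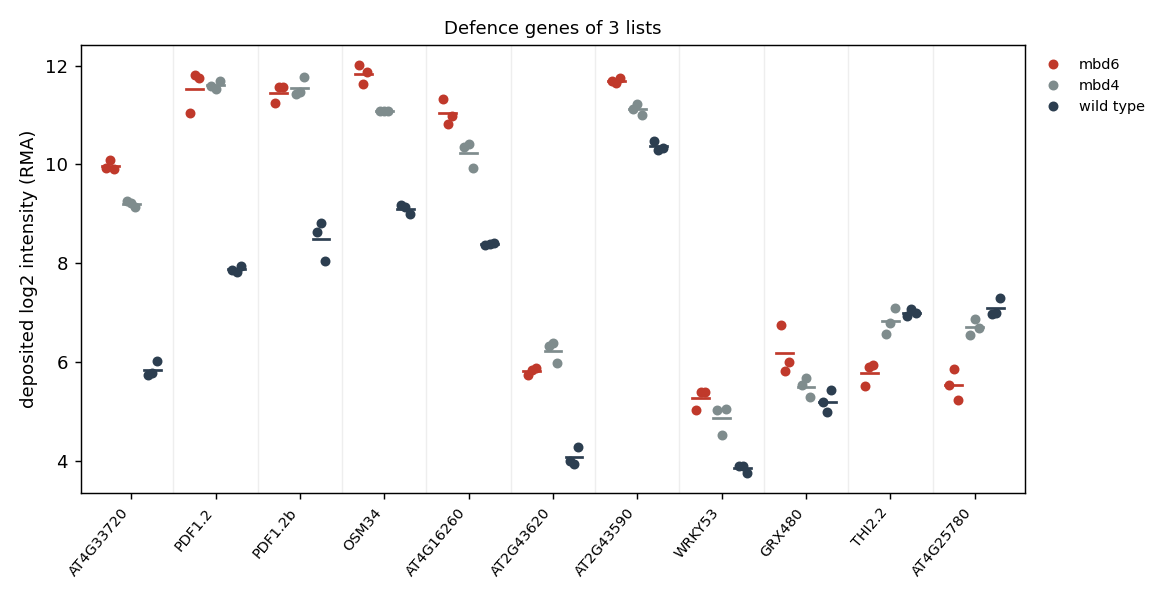
Log2 intensity of 11 defence genes in mbd6, mbd4 and wild type, 1 point per array with a bar at the mean of 3. AT4G33720, PDF1.2, PDF1.2b, OSM34 and AT4G16260 are far above wild type in both mutants, and THI2.2 and AT4G25780 are lowest in mbd6.

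The remaining genes with the largest rises came from several functions. AT3G19680 had 9.85, 9.53 and 9.58 in mbd6, against 6.77, 6.31 and 6.77 in wild type (change 3.03, adjusted p = 9.47e-08). AT1G26250 rose by 2.91, AT5G40590 by 2.46 and AT1G23140 by 2.37 (adjusted p = 3.78e-06, 8.34e-06 and 8.34e-06). AT1G26250 lay between 2.78 and 3.24 in wild type, near the low end of the scale. OCT1, a plasma membrane transporter of organic cations, had 8.31, 7.29 and 7.46 in mbd6, against 5.33, 5.24 and 5.07 in wild type (change 2.47, adjusted p = 9.65e-06). JAL23, a jacalin-type lectin, had 6.68, 5.52 and 5.68 in mbd6, against 3.69, 3.44 and 3.53 in wild type (change 2.41, adjusted p = 2e-05). For OCT1 and JAL23 mbd6 replicate 1 stood above the other mbd6 arrays. Both were chosen among genes whose mbd6 and wild-type values do not overlap.

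Both class III peroxidases found by symbol, enzymes that oxidise phenolics in the wall, were higher. Family members known only by locus were not counted. Prx37 had 8.64, 8.61 and 8.53 in mbd6, against 6.14, 6.35 and 6.27 in wild type (change 2.34, adjusted p = 3.56e-08). PRX52 rose by 2.00 (adjusted p = 1.58e-06). Of 26 genes with a CYP symbol, mostly cytochrome P450 enzymes of the CYP71B subfamily (CYP59 and CYP71 are cyclophilins), 4 were higher and 1 lower. The share called was 19.2%, near the 15.6% of all probe sets of 1 gene, and the median change was 0.04. CYP71B22 had 8.29, 8.33 and 8.15 in mbd6, against 5.80, 5.79 and 5.88 in wild type (change 2.43, adjusted p = 2.74e-08). CYP71B23, CYP71B29 and CYP71B6 rose by 1.29, 1.01 and 0.45, while CYP71B35 fell by 0.62. The CYP71B6 call was lost with all 12 arrays (adjusted p = 0.179). The median change of 47 UDP-glycosyltransferases, which attach sugars to small molecules, was 0.06. Of the 47, 10 were higher and 4 lower (29.8% called, beside 15.6% of all probe sets of 1 gene). These counts were 6 and 2 without wild-type replicate 1, 7 and 2 without wild-type replicate 3, 5 and 1 with all 12 arrays and 4 and 2 with a floor of 4. UGT71C3, UGT85A4 and UGT76B1 rose by 1.23, 1.2 and 0.99 (adjusted p = 0.000528, 0.000437 and 4.55e-05), and UGT76E11 fell by 0.75 (adjusted p = 0.00178). Of 14 glutathione transferases, 1 was lower (GSTU23, by 0.76) and 0 were higher. The GSTU23 call was lost with all 12 arrays (adjusted p = 0.0527).

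Wall-loosening genes were counted by family. Of 18 expansins and expansin-like genes 5 were higher and 1 lower, and the median change was 0.02. The share called was 33.3%, beside 15.6% of all probe sets of 1 gene. EXLA1 had 7.46, 6.39 and 6.67 in mbd6, against 5.47, 5.58 and 5.13 in wild type (change 1.45, adjusted p = 0.000579). EXLB1 rose by 1.2, EXLA2 by 1.11, EXPA16 by 0.99 and EXPA18 by 0.55 (EXPA18 adjusted p = 0.0867 with all 12 arrays). EXPA15 had 7.75, 8.66 and 8.73 in mbd6, against 9.29, 9.13 and 9.55 in wild type (change -0.94, adjusted p = 0.0296). The EXPA15 call was lost without mbd6 replicate 1, without wild-type replicate 1 or 3, with all 12 arrays, with a floor of 4, with a trended robust prior and with the replicate block (adjusted p = 0.0517 to 0.148). Of 9 xyloglucan endotransglucosylases, which cut and rejoin wall polymers, 4 were higher and 2 lower (66.7% called, beside the same 15.6%). They were led by XTH33 with a rise of 1.34 (adjusted p = 3.94e-05). The lower calls were XTH21 (-0.61), whose 6 values are all under 4, and XTH32 (-0.30, adjusted p = 0.0369), which was lost without any one of the mbd6 or wild-type arrays (0.0514 to 0.127). With all 12 arrays 1 was higher and 1 lower.

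Most of the measured genes induced by low oxygen were higher. When oxygen runs short, plant cells turn on a core set of genes for fermentation and for curbing energy use. Of 23 listed genes 8 were measured. Of these 8, 7 were higher, beside 7.35% of all probe sets of 1 gene, and 0 were lower. AT4G24110 was not called (change 0.44, adjusted p = 0.0752), and the median change was 0.77. AT1G19530 had 6.64, 6.35 and 6.36 in mbd6, against 4.45, 4.91 and 4.87 in wild type (change 1.70, adjusted p = 3.85e-06). AT1G33055 had 7.03, 6.94 and 6.59 in mbd6, against 5.35, 5.26 and 5.21 in wild type (change 1.58, adjusted p = 8.34e-06). AT4G10270 rose by 1.29 and AT4G33560 by 0.84 (adjusted p = 0.000172 and 0.000992). AT3G10040 and AT3G27220 rose by 0.55 and 0.52, and AT5G10040 was called at 0.69 with all 6 values under 4, where a floor of 4 left it no change. The first 4 were higher still in mbd4: the mbd6 minus mbd4 difference was -2.14 for AT1G19530 and -1.81 for AT1G33055, and -1.03 and -0.84 for AT4G10270 and AT4G33560 (adjusted p = 2.32e-06, 1.16e-05, 0.00192 and 0.00221). With all 12 arrays in the model 3 of the 8 members were called.

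Of 9 measured genes that respond quickly to touch and calcium signals, 6 were higher, beside 7.35% of all probe sets of 1 gene. In this list 0 were lower and the median change was 0.87. With a floor of 4, 5 of the 9 were higher. Besides AT3G19680, AT4G27280 had 10.73, 10.59 and 10.52 in mbd6, against 9.06, 9.20 and 9.22 in wild type (change 1.45, adjusted p = 8.93e-07). STZ, a zinc finger repressor of stress responses, had 8.69, 8.56 and 8.46 in mbd6, against 7.10, 7.16 and 7.29 in wild type (change 1.39, adjusted p = 5.63e-05). AT1G05575 rose by 1.54 and AT5G10695 by 0.87 (adjusted p = 0.000401 and 0.000528). AT3G19680, AT4G27280 and STZ were also higher in mbd6 than in mbd4, by 2.43, 1.43 and 1.08 (adjusted p = 2.17e-06, 3.34e-06 and 0.000923). The calmodulin-like gene CML37 was called at 0.57 with all 6 values under 4, and a floor of 4 left it no change. The ubiquitin ligase genes PUB22 and PUB23 differed by 0.36 and 0.10 without a call.

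**Figure D3:**
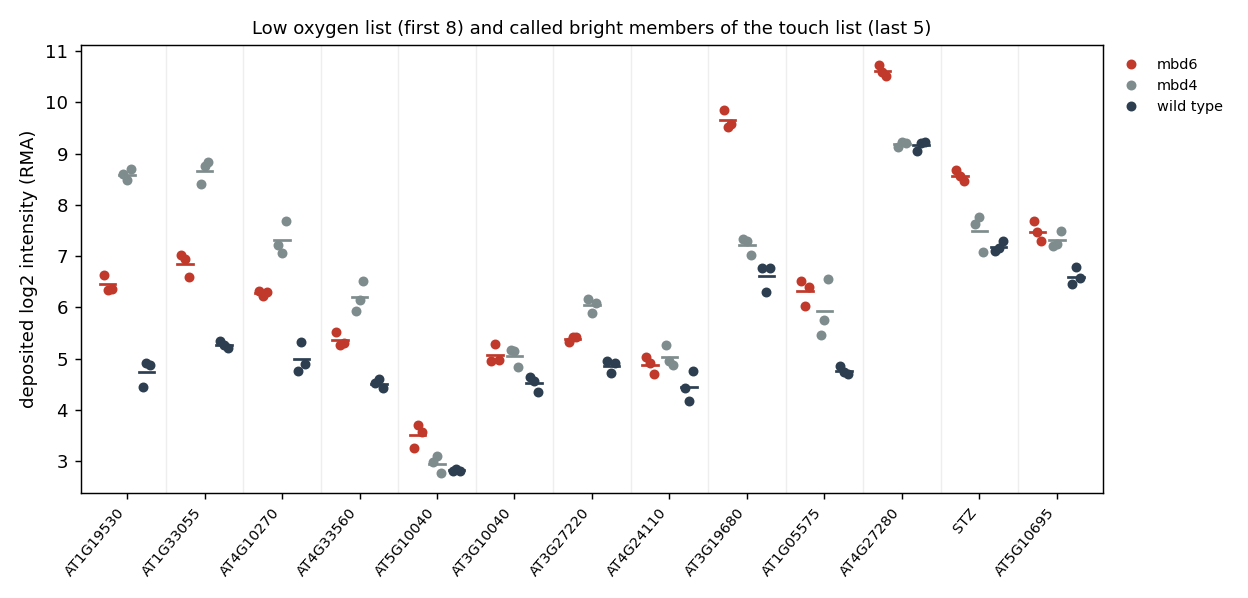
Log2 intensity of the 8 measured low oxygen genes, and of AT3G19680, AT1G05575, AT4G27280, STZ and AT5G10695 of the touch list, in mbd6, mbd4 and wild type, 1 point per array with a bar at the mean of 3. For AT1G19530, AT1G33055 and AT4G10270 mbd6 lies between mbd4 and wild type, whereas for AT3G19680, AT4G27280 and STZ mbd6 is highest.

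Among 4 measured genes linked to phosphate supply, 2 were higher, 1 was lower and the SUMO ligase gene SIZ1 was not called (change -0.06, adjusted p = 0.802; a dimmer probe set of SIZ1 gave 0.72, adjusted p = 0.0975). AT1G08310 had 8.10, 7.44 and 7.29 in mbd6, against 4.82, 4.82 and 4.84 in wild type (change 2.79, adjusted p = 8.84e-07). AT5G20790 had 10.27, 9.70 and 9.51 in mbd6, against 7.35, 7.09 and 7.39 in wild type (change 2.55, adjusted p = 1.1e-06). LPR1, a ferroxidase of the root tip needed for the root's response to low phosphate, had 4.99, 5.34 and 5.08 in mbd6, against 5.65, 6.23 and 5.92 in wild type (change -0.79, adjusted p = 0.00344).

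The flavonoid list held 2 of 7 members called, both higher, with a median change of 0.15. DFR, the reductase that commits flavonoids to anthocyanin pigments, had 9.64, 7.91 and 7.85 in mbd6, against 6.64, 6.66 and 6.60 in wild type (change 1.83, SE 0.35, adjusted p = 0.00301). AT4G14090 had 8.79, 7.29 and 7.45 in mbd6, against 6.67, 6.29 and 6.71 in wild type (change 1.29, adjusted p = 0.0447). UF3GT, which adds a sugar to anthocyanins, had 7.80, 6.29 and 6.29 in mbd6, against 6.34, 5.85 and 6.18 in wild type, and was not called (change 0.67, adjusted p = 0.207). In all 3, mbd6 replicate 1 stood at least 1.3 log2 units above the other mbd6 arrays. Without it AT4G14090 changed by 0.82 and lost its call (adjusted p = 0.17), and the list median was -0.12. The AT4G14090 call was also lost without mbd6 replicate 3 and without any one of the wild-type arrays (adjusted p = 0.054 to 0.131). All 12 arrays, a floor of 4, a trended robust prior and median centring each lost it too (0.0511 to 0.197). The UGT78D enzymes, which glycosylate flavonols, changed by -0.20 to -0.03.

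In the list of abscisic acid and cold genes COR15A, a chloroplast-protecting cold-regulated protein, was lower: it had 7.43, 6.90 and 7.06 in mbd6, against 8.13, 8.16 and 8.18 in wild type (change -1.02, adjusted p = 0.000133). COR15B, COR47 and LTI30 changed by -0.27, -0.23 and -0.19 and were not called (adjusted p = 0.188, 0.0985 and 0.302). COR15A was higher in mbd6 than in mbd4, by 0.47 (adjusted p = 0.0342). Among 7 auxin response genes 3 were higher. WES1, which couples auxin and salicylate to amino acids, had 9.82, 9.38 and 9.39 in mbd6, against 8.26, 8.46 and 8.46 in wild type (change 1.14, adjusted p = 4.55e-05). IAA29 and GH3.17 were called at 0.41 and 0.29, and both calls were lost with all 12 arrays (adjusted p = 0.148 and 0.179), without any one of the mbd6 arrays 1 and 3 (0.0632 to 0.131) and without wild-type replicate 1 or 2 (0.089 to 0.13). Of 6 heat shock genes AT5G51440 was higher, by 0.97 (adjusted p = 8.9e-05; 0.0859 with all 12 arrays), and 0 of the 4 redox genes were called. The clock gene GI (GIGANTEA) rose by 0.55 (adjusted p = 0.00369; 0.145 with all 12 arrays).

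**Figure D4:**
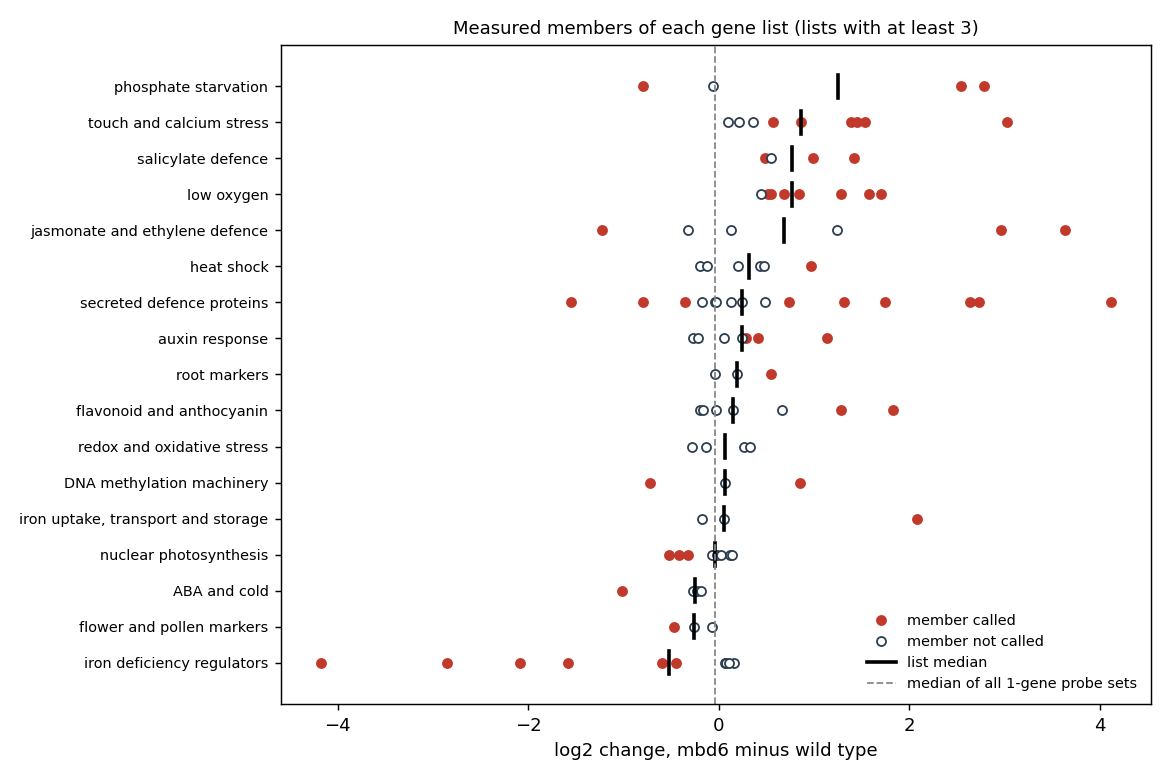
Log2 change (mbd6 minus wild type) of each measured member of the 17 gene lists with at least 3 measured members; filled points are called, open points are not, black bars mark list medians and the dashed line the median of all probe sets of 1 gene, -0.04. Phosphate, touch, salicylate and low oxygen lists have the highest medians and the iron deficiency regulators the lowest.

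Genes encoded in the chloroplast genome were lower in mbd6 as a body. That genome encodes core subunits of the photosystems, the cytochrome b6f complex, the ATP synthase, the NADH dehydrogenase-like complex, a bacterial-type RNA polymerase and part of the organelle's ribosomes. Of 69 measured chloroplast genes 35 were called lower (50.7%, beside 8.28% of all probe sets of 1 gene), 0 were called higher and 68 had a change under 0, with a median change of -0.84. By function, 6 of 20 photosystem genes, 8 of 12 genes of the b6f complex and ATP synthase, 3 of 10 of the NADH dehydrogenase-like complex, 3 of 4 polymerase genes and 9 of 15 ribosomal protein genes were lower.

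The deepest falls were in psbI and psbK, small subunits of photosystem II. The value of psbI was 6.94, 5.70 and 5.24 in mbd6, against 9.02, 8.92 and 9.11 in wild type (change -3.06, SE 0.32, adjusted p = 3.67e-05). For psbK the values were 6.62, 5.35 and 5.60 in mbd6, against 8.92, 8.49 and 9.03 in wild type (change -2.96, adjusted p = 5.07e-05). The ATP synthase subunit gene atpA had 8.72, 7.18 and 6.99 in mbd6, against 10.10, 9.78 and 10.08 in wild type (change -2.36, adjusted p = 0.000562). All 3 are called lower under each alternative setting. The Rubisco large subunit gene rbcL had 9.22, 8.51 and 8.02 in mbd6, against 10.04, 9.94 and 10.07 in wild type (change -1.43, adjusted p = 0.000744). The cytochrome f gene petA fell by 1.45 (adjusted p = 0.00635; 0.0702 with a floor of 4, and 0.056 with a trended robust prior), the photosystem I gene psaB by 1.09 (adjusted p = 0.00321) and the polymerase subunit gene rpoC1 by 1.43 (adjusted p = 0.00132).

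The size of the fall varied along the plastid genome. The genes psbA, matK, rps16, psbK, psbI, atpA, atpF, atpH, atpI, rps2, rpoC2 and rpoC1 are 12 measured genes that follow each other in RefSeq's order, and all 12 were called lower, with changes of -3.06 to -0.63. The number called among these 12 was 5 without wild-type replicate 3, 6 without mbd6 replicate 3, 7 without mbd6 replicate 2 or wild-type replicate 1, 6 with all 12 arrays, 7 with a trended robust prior and 5 with a floor of 4. In contrast psbJ, psbL, psbF and psbE, neighbours that encode small photosystem II subunits, changed by -0.34 to 0.05 and were not called (adjusted p = 0.233 to 0.914). The stretch of psbB, psbT, psbN, psbH, petB and petD held 0 calls, with unequal changes and spread. In it petB and petD changed by -0.29 and -0.15 (SE 0.18 and 0.15), and psbN and psbH by -0.24 and -0.39 (SE 0.28 and 0.45). For psbT (-0.98, SE 0.76) and psbB (-0.55, SE 0.55) the standard errors were wide. The called gene rps3 also changed by -0.55 (SE 0.13), so a missing call there does not show a smaller fall. For several genes without a call the wild-type arrays disagreed: psaA had 8.44, 6.99 and 6.66 in mbd6, against 9.57, 7.26 and 9.51 in wild type, and psbD had 7.62, 7.43 and 7.01 in mbd6, against 9.04, 6.81 and 9.03 in wild type, so the value of wild-type replicate 2 fell within or below the mbd6 range.

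**Figure D5:**
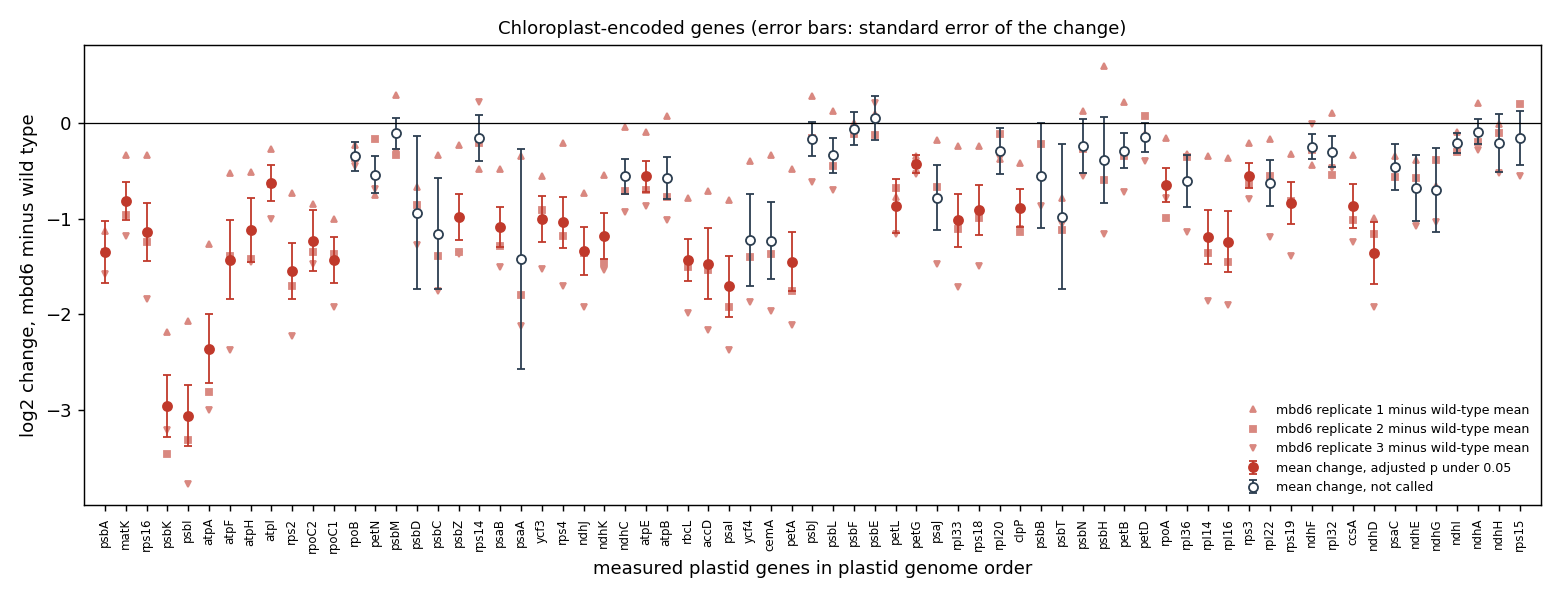
Log2 change (mbd6 minus wild type) of the 69 measured chloroplast genes in plastid genome order; round points are the mean change with its standard error, filled where called lower, and small symbols are single mbd6 arrays minus the wild-type mean. The 12 genes from psbA to rpoC1 are all called, psbK, psbI and atpA reach -2.36 to -3.06, and replicate 1 of mbd6 is mostly the highest of the 3.

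Single arrays moved with this result. Replicate 1 had the highest of the mbd6 values in 59 of the 69 genes, beside 30.6% of all probe sets, and replicate 3 the lowest in 55, beside 29.4%. Wild-type replicate 2 had the lowest of the wild-type values in 54 genes, beside 36.8% of all probe sets. The median change of the 69 genes was -0.35, -0.86 and -1.18 in mbd6 replicates 1, 2 and 3. The 25S ribosomal RNA control probe set read 6.22, 6.83 and 6.73 on the mbd6 arrays, 9.75, 9.61 and 5.69 on the mbd4 arrays and 7.79, 5.64 and 7.90 on the wild-type arrays, and its part in the result was not tested. Wild-type replicate 2 had the lowest 25S control value of its genotype, whereas within mbd6 the lowest was on replicate 1. Wild-type replicate 2 also had the largest mean 3' minus 5' control difference of the mbd6 and wild-type arrays. It was 1.5, beside 1.17 to 1.3 on the others, and its part in the result was not tested. Without that array 32 chloroplast genes were called lower, with a median of -0.97. On wild-type replicate 2, psbI (8.92), psbK (8.49) and rbcL (9.94) were above every mbd6 value. On that array psaA (7.26) was within the mbd6 range and psbD (6.81) below it. The 3 mbd6 and 3 wild-type values were fully separated in 34 of the 69 genes, beside 36.1% of all probe sets. The number of chloroplast genes called lower was 15 without mbd6 replicate 3, 20 without mbd6 replicate 2, 16 and 21 without wild-type replicates 3 and 1, 16 with all 12 arrays, 18 with a trended robust prior and 9 with a floor of 4, and it was 0 higher under every alternative, with medians of -1.07 to -0.62.

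Nuclear genes of photosynthesis shifted little beside this. Of 8 measured, 3 genes of carbon fixation were lower and 0 higher, with a median change of -0.04. SBPASE had 11.19, 11.26 and 11.34 in mbd6, against 11.79, 11.78 and 11.80 in wild type (change -0.52, adjusted p = 0.001). PRK, which makes the CO2 acceptor, fell by 0.42 (adjusted p = 0.00626; 0.135 with all 12 arrays). The Rubisco activase gene RCA was called at -0.32 (adjusted p = 0.0262), and this call was lost without any one of the mbd6 or wild-type arrays (adjusted p = 0.0519 to 0.0971). The photosystem and antenna genes PSBW, PSAE-1, PSAN, LHCB4.1 and LHCB4.2 changed by -0.07 to 0.14 without a call. AT5G42310, from the list of nuclear genes for plastid transcription and RNA processing, fell by 0.67 (adjusted p = 0.000781; 0.328 with all 12 arrays).

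A set of nuclear genes for the chloroplast NADH dehydrogenase-like complex was grouped by symbol after values were seen. Of its 8 members 6 were called lower, beside 8.28% of all probe sets of 1 gene, with a median change of -0.64. With all 12 arrays 3 of 8 were called. Since the set was formed after its values were seen, the count cannot test a shared fall. CRR21, an RNA editing factor for that complex, had 6.0, 6.28 and 6.14 in mbd6, against 7.04, 7.13 and 7.05 in wild type (change -0.93, adjusted p = 4.16e-05). The subunit genes NdhN and NdhL fell by 0.85 and 0.79 (adjusted p = 0.000132 and 0.000332). Of 16 measured genes of the mitochondrial genome 1 was called lower (nad1, by 0.44, adjusted p = 0.0119) and 0 higher, with a median change of -0.12. Only 5 of the 16 had a mean of at least 5, and their median change was -0.42. Up to 4 were called lower under the alternatives (with array weights), and the difference from the chloroplast genes was not tested. That nad1 call was lost when the several probe sets of the gene were averaged (adjusted p = 0.35).

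The other large falls, all chosen for groups that do not overlap, came from genes known here by locus. AT3G28220 had 8.02, 7.07 and 6.97 in mbd6, against 9.93, 10.10 and 9.94 in wild type (change -2.64, adjusted p = 4.21e-06). AT3G28270 fell by 2.35, AT5G42760 by 2.32, AT1G60590 by 2.32 and AT1G73120 by 2.1 (adjusted p = 1.81e-06, 1.64e-07, 2.5e-07 and 2.56e-07). AT2G15020 and AT1G48100 fell by 2.1 and 2.06. AT1G12030 fell by 1.95 and AT2G27420 fell by 1.93. AT1G73120 and AT1G12030 were near wild type in mbd4, with mbd6 minus mbd4 differences of -2.04 and -1.93 (adjusted p = 2.17e-06 and 2.14e-05). AT2G15020 and AT2G27420 were much lower in mbd4 too, and their mbd6 minus mbd4 differences were -0.74 and -0.59 (adjusted p = 0.0123 and 0.00166).

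Among genes bright on all 9 arrays of the model (every value above 8), where small intensities cannot play a part, PDF1.2b, OSM34 and AT4G16260 had the largest rises. DEWAX (AT5G61590), a repressor of wax synthesis genes, came next, at 10.67, 10.64 and 10.50 in mbd6, against 8.57, 8.46 and 8.48 in wild type (change 2.1, adjusted p = 6.05e-08). AT1G80130 rose by 1.49 (adjusted p = 0.000162). The largest falls in this bright set included NPF6.4 (AT3G21670), a transporter of the nitrate transporter family, at 8.34, 8.44 and 8.53 in mbd6, against 10.14, 10.20 and 10.13 in wild type (change -1.72, adjusted p = 6.24e-07). CDI had 8.72, 8.74 and 8.85 in mbd6, against 10.02, 10.19 and 10.27 in wild type (change -1.39, adjusted p = 1.29e-06). AT1G55960 fell by 1.31 (adjusted p = 6.02e-05), and petA and rbcL completed the set. CDI was as low in mbd4 as in mbd6 (difference -0.13, adjusted p = 0.457), whereas the mbd6 minus mbd4 difference was 0.81 for DEWAX and -0.78 for NPF6.4 (adjusted p = 0.000197 and 0.000708).

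Genes linked to DNA methylation were sparsely covered, with 3 of 35 measured. QQS, an orphan gene whose expression varies with the methylation of nearby repeats, had 5.74, 5.24 and 5.34 in mbd6, against 4.75, 4.25 and 4.77 in wild type (change 0.85, adjusted p = 0.00764; 0.0626 with a floor of 4). AT1G20870 had 3.81, 4.09 and 3.91 in mbd6, against 4.66, 4.65 and 4.67 in wild type (change -0.72, adjusted p = 0.000308). The demethylase gene DME was not called (change 0.07, adjusted p = 0.73). Annotated pseudogenes, grouped after values were seen and including loci derived from transposons, were largely unmoved: of 989 measured 5 were higher and 14 lower (1.92% called, beside 15.6% of all probe sets of 1 gene). Only 32 of the 989 had a mean of at least 5 over the 9 arrays, so most were near the low end of the scale. AT2G04460 was the exception among the rises, at 7.35, 7.33 and 7.55 in mbd6, against 5.24, 5.65 and 5.24 in wild type (change 2.03, adjusted p = 8.29e-07), and AT3G15310 fell by 1.57 (adjusted p = 4.14e-06).

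Markers of organs and cell types shifted in part. Both measured leaf markers were lower: TRY, which patterns trichomes, had 4.38, 4.84 and 4.34 in mbd6, against 5.57, 5.77 and 5.54 in wild type (change -1.11, adjusted p = 9.82e-05). FMA, which drives the last step of guard cell formation, fell by 0.68 (adjusted p = 0.00597; 0.19 with all 12 arrays). The mean log2 level of both together was 5.38 to 5.42 in mbd6 and 6.21 to 6.38 in wild type. Of 3 root markers, the root hair expansin EXPA18 was higher by 0.55 (adjusted p = 0.00803, and 0.0867 with all 12 arrays). EXPA7 and PYK10 were not called. The mean log2 level of the 3 root markers was 8.02 to 8.33 in mbd6 and 7.91 to 8.0 in wild type. Of 3 flower and pollen markers ACT11 was lower by 0.47 (adjusted p = 0.0221). That call was lost without mbd6 replicate 1 (0.0869) and without wild-type replicate 1 or 2 (0.0622 and 0.0905). It was also lost with a floor of 4 (0.0679) and with all 12 arrays (0.191). What share organ proportions have in the iron, chloroplast or wall results was not tested.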

How the data were processed

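Labelled RNA of whole seedlings was hybridised to ATH1 arrays. The authors deposited log2 intensities; RMA in R 2.11 is named in the submitters' processing notes, and scan dates were not used here. Values were used as deposited, with 0 missing. The 64 control probe sets were left out of tests, leaving 22746. The deposited annotation assigns 13513 to 1 gene, 503 to several and 8730 to none; 13436 of the 13513 matched RefSeq (TAIR10.1), used for symbols and gene order. Array number, 3 per genotype, limits precision.

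Each probe set was fitted with limma 3.58.1 (R 4.3.3; lmFit, eBayes) with 1 mean per genotype over the 9 arrays of mbd6, mbd4 and wild type. The residual degrees of freedom were 6 and the prior ones 6.06. Tests were two-sided, with Benjamini-Hochberg adjustment over 22746. The procedure was tested on simulated data.

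Members, 25 lists (567 loci, 112 measured; the brightest probe set per gene) and 25 symbol families were chosen with earlier results of these data known. Lists of MBD, clock, vascular, seed, glucosinolate, and nitrate and sulphate genes had at most 1 measured member. Named genes were the 15 largest rises and falls without overlap, the 5 largest per direction with all 9 values above 8, and list or family members. The peptide deformylase PDF1B, which shares letters with the defensins, was left out after values were seen. Replicate numbers did not pair the samples: deviations of same-numbered mbd6 and wild-type arrays correlated at 0.00911, -0.126 and -0.0106. Alternatives were other array sets, normalizations, filters, priors and weights, and each replicate left out.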

Additional observations from a re-analysis of the deposited data

How the results depend on the processing

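The count of called probe sets depended most on which arrays shared the estimate of spread. With all 12 arrays, 1572 were called (910 higher, 662 lower), and all 1572 were among the 4106 in the same direction; mbd6 against mbd4 then gave 467 in place of 2470. Leaving out 1 array at a time gave 2835 to 5025 calls, with 1511 to 2474 higher and 1324 to 2551 lower, and 1652 to 2283 against mbd4. Against wild type the fewest calls came without wild-type replicate 3 and the most without mbd4 replicate 3; against mbd4 the fewest came without mbd6 replicate 3. A floor of 4 gave 3228 calls, a mean of at least 5 gave 3920, median centring 4271 (1937 higher, 2334 lower), quantile normalization 4182, a trended robust prior 4160, array weights 5128 and the 6 arrays alone 4535. With the replicate number as a block, 3545 were called, 3485 of them among the 4106 in the same direction. The numbers are not known to pair samples.

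Of 253 called probe sets of named, list or family genes, 123 lost their call under at least 1 of the 19 alternatives. There were 0 changes of sign. The other 130 kept their call under every alternative that included them. With a mean of at least 5, 207 of the 253 kept their call, 0 lost it and the rest were filtered out. Of 330 such probe sets without a call, 56 were called under at least 1 alternative and 96 had changes on both sides of 0. Of 47 list and family medians, 34 kept their sign throughout. The cause of these changes was not tested. Near the low end of the scale a fall has little room, and a floor of 4 left some called falls there, such as XTH21 and petG, no change. List members without a probe set of their own were not analysed here.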

Other observations

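Further genes with symbols changed at least 2-fold and were singled out after their values were seen. EXO (EXORDIUM), a wall protein gene tied to growth and brassinosteroid signalling, had 10.68, 10.22 and 10.43 in mbd6, against 8.18, 7.98 and 8.38 in wild type (change 2.26, adjusted p = 9.08e-07). The chitinase gene ChiC rose by 2.1 (adjusted p = 2.72e-07) and SUFE2, an activator of plastid sulphur mobilisation, by 2.08 (adjusted p = 1.24e-06). ICL, the isocitrate lyase of the glyoxylate cycle, had 7.62, 6.66 and 7.03 in mbd6, against 5.41, 4.95 and 5.41 in wild type (change 1.85, adjusted p = 0.000487). SAPX, a stromal ascorbate peroxidase, rose by 1.15 and the vacuolar protease gene GAMMA-VPE by 1.03 (adjusted p = 1.74e-05 and 4.71e-05). The autophagy genes ATG8E and ATG8H rose by 0.88 and 0.51 (adjusted p = 0.00159 and 0.0205), 2 of 8 measured in that family; for ATG8H the adjusted p was 0.0708 without mbd6 replicate 1, and the call was also lost without wild-type replicate 1 or 3 (0.0664 and 0.0724) and with all 12 arrays (0.16).

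Among falls, both type-A response regulators found by symbol, which damp cytokinin signalling, were lower. RR16 had 6.14, 6.39 and 6.5 in mbd6, against 7.88, 7.95 and 7.82 in wild type (change -1.54, adjusted p = 1.99e-06), and ARR15 fell by 1.04 (adjusted p = 0.000225). PUB19, a ubiquitin ligase gene, had 4.77, 4.56 and 4.55 in mbd6, against 5.93, 6.29 and 5.93 in wild type (change -1.42, adjusted p = 8.71e-06). BGLU40, a beta-glucosidase gene, fell by 1.36, and HYH, a homologue of the light-signalling factor HY5, by 1.05 (adjusted p = 8.98e-06 and 0.000425). HYH was lower in mbd6 than in mbd4 by a difference of -1.16 (adjusted p = 0.000606), while PUB19 was at a like level in both (difference -0.03, adjusted p = 0.932).

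Some genes changed at least 2-fold lie next to each other. Taking genes at most 4 places apart in RefSeq's order that changed in the same direction gave 12 groups with 25 genes, 10 groups higher and 2 lower, and no expected number was computed. WES1, AT4G27280 and AT4G27300 rose by 1.14, 1.45 and 1.31. CYP71B22 and CYP71B23 rose by 2.43 and 1.29, Prx37 and AT4G08780 by 2.34 and 1.1, and AT2G43580 and AT2G43590 by 2.19 and 1.32. Neighbouring copies can share sequence, and whether their probe sets detect each other's transcripts was not tested.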
